A study of Mus musculus with 16 samples.

Results

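Long intergenic noncoding RNAs (lincRNAs) are transcripts from the stretches between protein-coding genes. The array used here holds probes for mouse lincRNA intervals that carry no gene symbol and are named by their position, such as chr15:32167516-32174427_R, where the last letter gives the forward (F) or reverse (R) strand. Of the 16181 probes named this way, 8 lay in the immunoglobulin heavy chain locus and were left out. Of the other 16173 probes, 7476 are described here as measured: they were selected on detection, the scanner's call that a spot is well above background, which had to hold on 4 or more of the 16 arrays. They stood for 3241 names (an interval and a strand) and 2553 intervals, within a whole array of 55681 probes, of which 32881 were measured by the same rule. Because detection chose these probes, their detection and the signals just inside and outside the limit are given as description.

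RNA came from B220+ splenic B cells of 3'RR-deficient mice and of wild-type mice. In the former the 129 IgH allele is knocked out in a BALBC background, and the label's strain field reads BALBC, while that of the wild type reads 129. The 3'RR is a group of enhancers at the end of the heavy chain locus that raise transcription of this locus and support class switching. Slide 1 held deficient samples 9 to 12 and wild-type samples 2, 5, 6 and 8, and slide 2 held deficient samples 1 to 4 and wild-type samples 1, 2, 3 and 5, so each of the 4 groups had 4 arrays. Genotype and strain entry go together and cannot be told apart, and no age or treatment is given in the labels. By slide position, deficient arrays took 5 to 8 and wild-type arrays 1 to 4 on slide 1, and the reverse on slide 2. Genotype and position within a slide therefore cannot be told apart either. The series text speaks of 4 mice of each genotype, while 8 arrays of each were analysed, and no label ties an array to a mouse, so p-values measure the spread between samples, which may be partly technical.

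Many lincRNAs were first mapped by chromatin marks of active transcription that lie outside known genes. They are spliced and polyadenylated like messenger RNA, tend to be present at low levels and in few cell types, and often lie close to the promoter of a coding gene, sometimes on the opposite strand. Some, such as Xist, Malat1 and Gas5, have names and studied roles, while most are known only as intervals. A probe reports the strand it was designed for, so a pair of probes to opposite strands of 1 place can report different transcripts.

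The probe sequences below are those on which the comparisons of strands and neighbours turn. All are 60 bases, written 5′ to 3′ as the array carries them, with mm9 positions. The first 3 lie on the reverse strand of chromosome 15 (chr15:32170344-32170403, chr15:32170366-32170425 and chr15:32170389-32170448), and capitals mark the 15 bases that all of them share.
A_30_P01033043: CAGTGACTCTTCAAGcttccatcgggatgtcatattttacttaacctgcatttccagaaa
A_30_P01019643: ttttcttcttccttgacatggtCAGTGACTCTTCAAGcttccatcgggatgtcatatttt
A_30_P01029468: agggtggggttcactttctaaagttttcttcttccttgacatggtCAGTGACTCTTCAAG

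The next pairs each hold a forward and a reverse probe, in that order, and capitals mark the stretch in which one is the reverse complement of the other. The stretch is 50 bases in the interval that holds the histone gene Hist2h2bb (chr3:96082517-96082566), 17 bases in the interval nearest Rasal2 (chr1:158989192-158989208), 36 bases near Zbtb20 (chr16:43623950-43623985), 46 bases near Rnf213 (chr11:119270282-119270327) and 50 bases in an interval nearest Acox3 (chr5:35977053-35977102).
A_30_P01031568: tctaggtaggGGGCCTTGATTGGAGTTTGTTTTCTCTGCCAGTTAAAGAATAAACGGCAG
A_30_P01027619: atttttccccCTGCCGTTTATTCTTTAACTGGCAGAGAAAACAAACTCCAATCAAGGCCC
A_30_P01020037: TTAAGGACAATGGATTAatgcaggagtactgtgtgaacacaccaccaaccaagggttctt
A_30_P01024237: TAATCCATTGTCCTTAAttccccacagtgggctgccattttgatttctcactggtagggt
A_30_P01021665: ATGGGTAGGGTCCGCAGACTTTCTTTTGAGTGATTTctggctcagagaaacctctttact
A_30_P01027868: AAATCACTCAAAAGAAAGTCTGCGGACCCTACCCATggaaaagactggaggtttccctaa
A_30_P01023623: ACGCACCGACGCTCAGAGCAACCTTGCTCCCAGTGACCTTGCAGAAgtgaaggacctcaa
A_30_P01021573: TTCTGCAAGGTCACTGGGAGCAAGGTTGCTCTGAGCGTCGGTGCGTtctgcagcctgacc
A_30_P01021642: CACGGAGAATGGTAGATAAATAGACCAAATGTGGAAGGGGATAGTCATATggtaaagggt
A_30_P01021070: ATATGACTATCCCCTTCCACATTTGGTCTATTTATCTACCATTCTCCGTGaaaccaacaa

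The last 4 are forward probes shown because a direct neighbour behaved differently, or because only 1 genotype was detected. A_30_P01021237 (chr1:158989252-158989311) starts on the base after A_30_P01020037 ends. A_30_P01023313 (chr1:162967716-162967775) starts on the base after A_30_P01026422 (chr1:162967656-162967715), inside the Gas5 gene. A_30_P01025069 (chr7:88668440-88668499) was detected only in deficient samples.
A_30_P01021237: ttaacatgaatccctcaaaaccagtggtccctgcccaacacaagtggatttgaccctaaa
A_30_P01026422: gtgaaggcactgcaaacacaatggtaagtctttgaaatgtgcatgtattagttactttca
A_30_P01023313: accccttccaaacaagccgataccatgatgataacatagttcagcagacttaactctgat
A_30_P01025069: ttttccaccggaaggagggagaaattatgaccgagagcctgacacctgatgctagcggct

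Of the coordinate-named probes 46.2% met the detection rule, against 64.3% of the other probes on the array. A further 5108 (31.6%) were well above background on no array, and 3615 (22.4%) on all 16. On single arrays, between 28.2% and 36.2% were well above background on slide 1 and between 40.3% and 51.2% on slide 2. On slide 1 the genotypes overlapped, with 29.3% to 36.2% on deficient and 28.2% to 32.8% on wild-type arrays. On slide 2 they did not, with 40.3% to 42.4% on deficient and 44.6% to 51.2% on wild-type arrays. The other probes on the array were also apart there, with 59.3% to 60.6% on deficient and 61.6% to 65.6% on wild-type arrays.

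**Figure D1:**
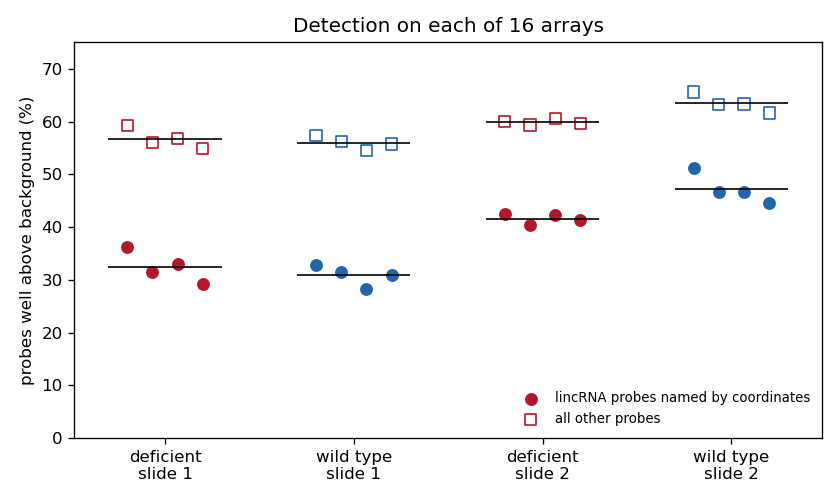
Share of probes well above background (%) on each array, by genotype and slide, for the 16173 lincRNA probes named by coordinates (filled circles) and all other probes (open squares); lines are means of 4 arrays. The lincRNA probes run from 28.2% to 51.2% and lie below the other probes on every array, and the 4 wild-type arrays of slide 2 are highest.

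The signal given below is the processed intensity on the log2 scale, relative to the 75th percentile of its own array. Measured probes had a mean signal over 16 arrays between -6.28 and 8.63, with a median of -3.41 and quartiles of -4.63 and -1.75. The 366 probes detected on exactly 4 arrays had a median signal of -5.44, and the 506 on exactly 3 arrays, just outside the rule, one of -5.67. Detection moved with base composition: 23.0% of probes with at most 30% G and C were measured, 37.6% of those above 30 and up to 40%, 44.7% above 40 and up to 50%, 64.5% above 50 and up to 60%, and 88.8% above 60%. The interval itself had a median length of 9386 bases, from 86 to 538251. All 16055 probes with a mapped position lay inside their named interval and on its named strand. The motif AATAAA, the usual signal for cleavage before the poly(A) tail, was read on the probe's own strand only. It stood in 3.76% of measured lincRNA probes, against 13.8% of other measured probes and 10.1% of all 60-base probes on the array.

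The 6 brightest measured probes show that the label lincRNA covers more than one kind of RNA. A_30_P01020015 of chr17:39982023-39983277_F, with a mean signal of 7.89, lay in an interval that also holds a probe for Rn45s, the precursor of ribosomal RNA. A_30_P01022075 of chr17:17481706-17482457_R (8.05) lay in an interval with a probe named Oaz1, after a gene for an inhibitor of polyamine synthesis whose other probe maps to chromosome 10. The other four were A_30_P01026458 of chr11:22681800-22707775_R (8.63, nearest gene B3gnt2 at 27.2 kb), A_30_P01030669 of chr7:108209996-108216032_R (8.29, P2ry2 at 64.4 kb), A_30_P01031448 of chr14:78924115-78938125_F (7.96, Akap11 at 10.8 kb) and A_30_P01032016 of chr6:83368261-83407280_F (7.69, Tet3 at 15.5 kb). In the limma test of genotype over both slides these 6 gave differences from -0.26 to -0.02, with adjusted p from 0.163 to 0.952. In the whole set, 49 measured probes (0.655%) overlapped a probe with an official gene symbol on the same strand. A further check used 45 measured probes whose sequence the array repeats under another name: the size of the gap between the 2 genotype differences had a median of 0.0583 and a maximum of 0.52 on the log2 scale.

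The first comparison asks which lincRNA probes differed between deficient and wild-type samples. Over both slides 562 of 7476 measured probes were higher and 462 lower in deficient samples (limma, adjusted p under 0.05 over all 32881 probes), and 146 of the higher and 59 of the lower differed by at least 1 on the log2 scale. The background over all probes tested was 7.58% higher and 9.22% lower, 16.8% called in all. The lincRNA probes had 7.52% higher and 6.18% lower, so their share of higher calls was near the background and their share of lower calls was below it. The median difference was -0.02 for lincRNA probes and -0.03 for all probes, with quartiles of -0.21 and 0.18 for the former. The share called rose with signal, from 7.75% in the dimmest of 5 equal classes to 19.1% in the brightest. It rose among other probes of like signal too, from 10.2% to 19.4%. In bulk samples such as these, fewer cells of a type and less RNA per cell cannot be told apart. The split of calls moved with scaling: 54.9% of called lincRNA probes were higher with the 75th percentile, 65.7% (645 higher, 336 lower) when arrays were scaled to their median, and 48.4% (415 higher, 443 lower) with normexp background correction, which turns the balance. A probe detected in 1 genotype only passed the detection rule through that genotype, so its difference is partly set by the rule: 106 measured probes were detected on no deficient array and 29 on no wild-type array. Such probes were not counted over all probes. Among the 5062 measured probes detected in every group, 420 were higher and 347 lower. With slide as a random block 357 were higher and 267 lower over both slides.

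The largest differences lay in 1 place on chromosome 15, in the overlapping intervals chr15:32167516-32174427_R and chr15:32167516-32174417_R. All 9 measured reverse probes there were higher in deficient samples, by 2.57 to 6.02, and 6 of them share 3 to 57 bases with the probe of the clone 0610007N19Rik, which was itself higher by 5.78 (adjusted p = 2.39e-08). A_30_P01033043, the first sequence printed above, read -0.96, -0.42, 0.57 and 0.66 in the deficient and -7.0, -6.73, -6.64 and -6.58 in the wild-type samples of slide 1. On slide 2 it read -2.78, -1.87, -1.54 and -1.45 in the deficient and -7.69, -7.51, -7.07 and -6.75 in the wild-type samples. No wild-type array was well above background. The deficient level was thus at least 25.7-fold that of the wild type on slide 1 and at least 10.9-fold that on slide 2. The fitted difference was 6.02 (SE 0.26, adjusted p = 3.22e-09). This probe and that of 0610007N19Rik passed the detection rule through the deficient samples alone, so their differences are partly set by the rule.

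A_30_P01019643 and A_30_P01029468, which share 15 bases with A_30_P01033043, were higher too, at least 27.1-fold and 25.3-fold on slide 1. The bounds on slide 2 were 11.3-fold and 9.13-fold. The forward probes of the same intervals, A_30_P01022166 and A_30_P01025053, differed by 0.03 (SE 0.16, adjusted p = 0.934) and 0.11 (SE 0.25, adjusted p = 0.812). The nearest gene with an official symbol, the taste receptor Tas2r119 at 59.5 kb, was not measured. Sema5a, a semaphorin gene on the same chromosome (probe at chr15:32626025-32626084), was higher by 5.12 (SE 0.21, adjusted p = 2.25e-09). Its difference was 6.96 on slide 1 and 3.27 on slide 2, and the slides differed (-3.69, adjusted p = 0.000211). The Sema5a probe too passed the detection rule through the deficient samples alone, so its difference is partly set by the rule. Of the 11 measured lincRNA probes in this megabase, 9 were called, all higher.

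The other probes of the 12 with the largest higher difference lay in single places on chromosomes 2, 6 and 17, and each had samples that did not follow their group. A_30_P01028821 of chr17:71242333-71273533_R read -2.31, -1.14, -1.11 and -0.98 in the deficient samples of slide 2 and between -7.57 and -7.15 in the wild type, at least 15.7-fold higher. On slide 1 its deficient samples split, with -2.11 and -1.86 beside -7.24 and -6.69, against wild-type values from -6.93 to -5.26. The difference over both slides was 3.88 (SE 0.71, adjusted p = 0.00223), while Tgif1, a homeobox repressor and the nearest gene at 48.6 kb, differed by -0.24 (adjusted p = 0.171) and was lower on slide 1 alone (-0.64, adjusted p = 0.0124). A_30_P01019266 of chr6:35201798-35217831_F was higher by 3.55 (SE 0.54, adjusted p = 0.000557), with 1 deficient sample of slide 1 at -6.48 and the other 3 between -2.64 and -2.12. The clone 1810058I24Rik in that interval gave 3.13 with one probe (adjusted p = 0.00173) and -0.18 with another (adjusted p = 0.235).

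A_30_P01023064 of chr2:71205705-71226510_F was higher by 3.18 (SE 0.45, adjusted p = 0.000285). Detection held on 3 of 4 deficient arrays in slide 1, on all 4 in slide 2 and on no wild-type array. The probe thus passed the detection rule through deficient samples alone, and its difference is partly set by the rule. The nearest gene Hat1, a histone acetyltransferase, differed by -0.01 (adjusted p = 0.958). A_30_P01030982 of chr17:22013350-22095775_R was higher by 3.46 (SE 0.90, adjusted p = 0.0184), with 1 deficient sample at -6.89 on slide 1, 1 at -7.25 on slide 2 and 1 wild-type sample of slide 1 at -4.07 beside 3 from -6.77 to -6.62. Its nearest gene, the zinc finger gene Zfp943, differed by 0.17 (adjusted p = 0.392). The SEs of these 4 differences, 0.45 to 0.90, were larger than the 0.26 of A_30_P01033043.

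Detection alone separated the genotypes for few lincRNA probes. This was not counted over all probes, so it is not given as particular to lincRNA probes. Detection on all 8 deficient arrays and no wild-type array was seen for 6 measured probes, and the converse for 0. Of those 6, 5 were the chromosome 15 probes. The other was A_30_P01025069 of chr7:88668435-88674440_F, whose sequence is printed above and whose nearest gene, Fsd2, was not measured. It read from -3.52 to -1.97 in deficient and from -6.50 to -5.64 in wild-type samples on slide 1, and from -3.55 to -2.96 against -7.0 to -4.76 on slide 2. The groups did not overlap on either slide, and the difference was 2.87 (SE 0.29, adjusted p = 1.52e-05). All 6 passed the detection rule through the deficient samples alone, so their differences are partly set by it and are a description.

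**Figure D2:**
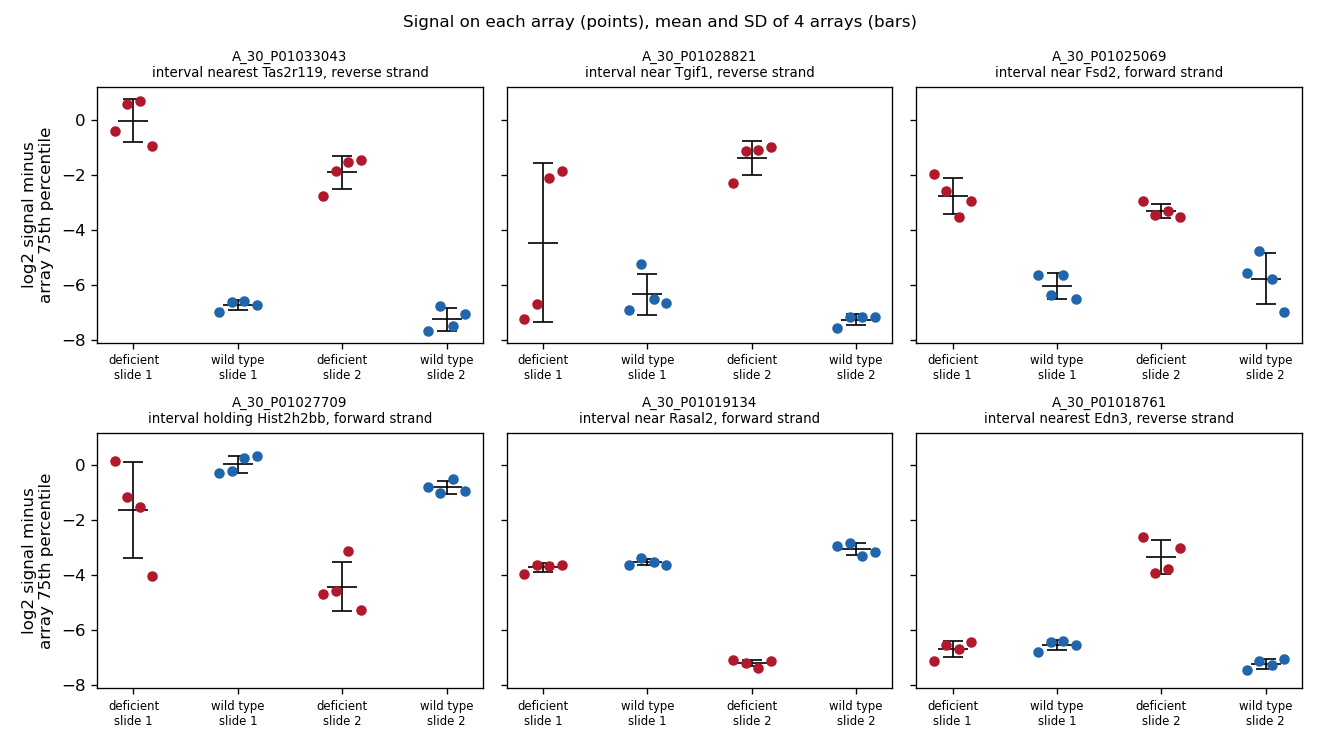
Signal (log2 minus the array's 75th percentile) of 6 lincRNA probes on each array, by genotype and slide, with the mean and SD of 4 arrays. A_30_P01033043 and A_30_P01025069 are higher in all deficient samples of both slides, A_30_P01028821 splits among deficient samples of slide 1, A_30_P01027709 is lower mainly on slide 2, and A_30_P01019134 and A_30_P01018761 differ between genotypes on slide 2 but not on slide 1.

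Among the lower probes, 5 lay in 1 interval that holds a histone gene. All 5 measured forward probes of chr3:96074625-96086375_F were lower in deficient samples, with differences from -1.76 to -2.63 on the log2 scale. A_30_P01027709 had the largest and read -4.02, -1.53, -1.15 and 0.15 in deficient samples of slide 1 and -0.28, -0.21, 0.28 and 0.32 in wild-type samples, so the groups overlapped there. On slide 2 it read -5.25, -4.68, -4.57 and -3.12 against -1.02, -0.92, -0.78 and -0.50, with no overlap, 3 of 4 deficient arrays well above background and a 12.2-fold lower level (-3.60, adjusted p = 0.00378). The probe A_51_P361620 of Hist2h2bb, a histone H2B gene inside the interval, gave -2.68 (adjusted p = 0.0017) and overlaps 42 bases of this probe. The other Hist2h2bb probe, the brighter of the 2, lies outside the interval (chr3:96074056-96074115) and gave -0.53 (SE 0.20, adjusted p = 0.0795). It was lower on slide 1 (-0.82, adjusted p = 0.0464) and gave -0.25 on slide 2 (adjusted p = 0.684). The gene's 2 probes thus went one way but differed in size, and the brighter did not pass over both slides.

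The reverse probe A_30_P01027619, complementary to 50 bases of the forward probe A_30_P01031568, differed by -0.29 (SE 0.30, adjusted p = 0.567), while A_30_P01031568 was lower (-1.80, SE 0.31, adjusted p = 0.00148). The reverse probe read between -4.84 and -4.13 in deficient and between -4.64 and -1.92 in wild-type samples on slide 1. On slide 2 it read between -3.0 and -2.48 against -3.28 and -2.85, so the groups overlapped on both slides. Both probes contain the same stretch of DNA, read from opposite strands.

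The single lower probe with the largest size was A_30_P01031095 of chr18:82862340-82875566_F (-3.38, SE 0.55, adjusted p = 0.00104). Deficient samples of slide 1 read -7.27, -6.88, -3.43 and -2.73 against -3.10 to -2.15 in the wild type, and on slide 2 all 4 lay from -7.22 to -7.02 against -3.18 to -2.68, at least 4.78-fold lower. Zfp236, the nearest gene at 97.3 kb and a zinc finger gene, was higher (0.91, adjusted p = 0.00228). A_30_P01021271 of chr6:57695178-57695277_R was lower (-2.16, SE 0.36, adjusted p = 0.00105), with no deficient array of slide 1 and 1 of slide 2 well above background. Lancl2, 5.7 kb away on the other strand, was higher with 2 of its 3 probes (0.59, adjusted p = 3.64e-05 for the brightest).

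Among the remaining lower probes, A_30_P01028861 of chr5:67865049-67868521_F was well above background on the 4 wild-type arrays of slide 2 alone. It passed the detection rule through that group alone, so its difference of -1.95 over both slides is a description, and with dim spots set at the floor it was -0.36. On slide 2 it read from -5.04 to -3.95 in wild-type and from -7.27 to -7.08 in deficient samples. A_30_P01023741 of chr5:107503800-107515575_F was lower (-1.87, SE 0.23, adjusted p = 8.98e-05), while the reverse probe A_30_P01019218 of that interval differed by 0.25 (adjusted p = 0.47). A_30_P01019822 of chr15:73455424-73477275_R was lower (-2.03, adjusted p = 0.0132), with 1 deficient sample of slide 2 at -3.54 and the other 3 from -7.19 to -6.79. Slc45a4, a sugar transporter gene 43.3 kb away on the same strand, was lower too (-0.38, adjusted p = 0.00487). A_30_P01021347 of chr10:8606683-8665783_R was lower (-1.80, SE 0.47, adjusted p = 0.0186). Its nearest gene, the scaffold protein gene Sash1, was lower on slide 2 (-2.38, adjusted p = 0.00262) and gave -0.23 on slide 1 (adjusted p = 0.718), and the slides differed (-2.15, adjusted p = 0.028). The call of A_30_P01021347 was lost in 3 of 25 alternatives, none of which left out an array (adjusted p up to 0.182).

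The slides were then taken one at a time. On slide 1, 832 lincRNA probes were higher and 510 lower, against a background over all probes of 9.18% higher and 14.1% lower. That is 11.1% and 6.82% of the lincRNA probes, so the balance of directions was turned relative to all probes. On slide 2, 140 were higher and 186 lower (1.87% and 2.49%), against 3.65% and 3.82% over all probes. The lincRNA median was 0.03 on slide 1 and -0.06 on slide 2, and that of all other probes -0.09 and 0.03. In the dimmest of the 5 signal classes the lincRNA median on slide 2 was -0.15 and that of other probes of like signal -0.16, and the wild-type arrays of slide 2 had the most probes detected; the part of detection in the balance of directions was not tested.

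Few calls were shared by the slides, but a call on 1 slide alone does not show that the slides differ. Of the 1024 probes called over both slides, 924 had 1 sign on both slides and in 100 the signs differed. Choosing probes by the mean of the slides favours 1 sign. Both called 104 lincRNA probes in 1 direction and 16 in opposite directions, with 1222 called on slide 1 alone and 206 on slide 2 alone. This overlap was not counted over all probes, so it is not given as particular to lincRNA probes. The slide 2 counts rest on few arrays: they fell to 92 higher and 100 lower without wild-type sample 1, to 88 and 123 without wild-type sample 3, and the lower count fell to 121 without wild-type sample 2 and to 123 without deficient sample 3. Fitted alone, slide 1 gave 377 higher and 171 lower and slide 2 gave 251 and 363. On slide 2, 42.9% of calls were higher, and 61.2% when arrays were scaled to their median.

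The difference between the slides' genotype differences was tested directly. It passed for 584 lincRNA probes, 7.81%, against a background of 13.9% over all probes tested. The genotypes also swapped positions between the slides, and the part of position cannot be told apart here. Of these, 415 moved down from slide 1 to slide 2 and 169 up, and 449 had opposite signs on the slides. Among all other probes the balance was turned, with 2697 up and 1275 down. The count fell to 382 without wild-type sample 1 of slide 2.

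The strongest case was the interval chr1:158979050-159007700_F, 63.1 kb from Rasal2, which encodes a Ras GTPase-activating protein. A_30_P01019134 read from -3.94 to -3.62 in deficient and from -3.61 to -3.37 in wild-type samples of slide 1. On slide 2 the deficient samples lay between -7.35 and -7.07, none of them well above background, and the wild type between -3.30 and -2.82. The difference was -0.19 on slide 1 (adjusted p = 0.248) and -4.13 on slide 2 (adjusted p = 7.96e-11), at least 4.24-fold lower, and the slides differed by -3.95 (SE 0.16, adjusted p = 2.13e-08).

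A_30_P01020037, printed above, repeated this: its slide 1 difference was 0.0034 (adjusted p = 0.987) and its slide 2 difference -3.68 (adjusted p = 1.93e-10). The probe that begins on the next base, A_30_P01021237, did not: it was well above background on all 16 arrays, and its difference on slide 2 was -0.22 (adjusted p = 0.619), with deficient samples from 0.51 to 0.61 and wild-type samples from 0.38 to 1.35. The reverse probe A_30_P01024237, which shares 17 bases with A_30_P01020037, gave 0.20 on slide 2 (adjusted p = 0.855). Neighbouring probes on 1 strand therefore gave both the strongest difference between slides and, for A_30_P01021237, one that did not pass (0.48, adjusted p = 0.301).

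The other four probes by lowest adjusted p took several forms. A_30_P01018761 of chr2:175432867-175469471_R and A_30_P01022815 of chr8:41730287-41746862_F were well above background on the 4 deficient arrays of slide 2 and nowhere else, at least 4.12-fold and 3.04-fold higher there. Both passed the detection rule through that group alone, which favours such a difference, so their values are a description and not a test. With the authors' value table A_30_P01022815 lost its slide difference (adjusted p = 0.583). Their nearest genes, Edn3 and Adam24, were not measured. A_30_P01023287 of chr5:75186625-75186910_F was higher on slide 1 (2.41, adjusted p = 5.96e-06) and gave -0.57 on slide 2 (adjusted p = 0.117), and its slide difference was lost with dim spots set at the floor (adjusted p = 0.118). A_30_P01030499 of chr8:47813487-47824869_R was bright on all 16 arrays, higher on slide 1 (1.10, adjusted p = 3.92e-05) and lower on slide 2 (-0.42, adjusted p = 0.0423).

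**Figure D3:**
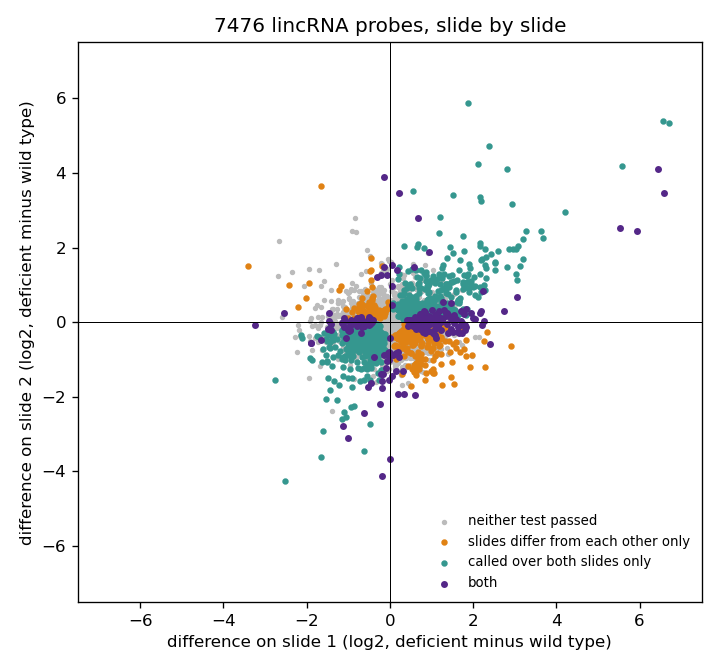
Genotype difference (log2, deficient minus wild type) on slide 1 against slide 2 for 7476 lincRNA probes, coloured by the limma tests passed. The far upper right holds the chromosome 15 probes, with differences up to 6.70 on slide 1, and of the 1024 probes called over both slides 750 have a smaller difference on slide 2 than on slide 1. The last share was not counted over all probes.

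Within genotypes, slide 2 was higher than slide 1 for 4308 lincRNA probes and lower for 1535, against a background of 53.2% higher and 28.3% lower over all probes. The median difference was 0.62, against 0.31 for other probes, and fell from 1.34 in the dimmest class to 0.19 in the brightest, as it did among other probes of like signal (1.22 to 0.25). The scaling sets the level of this comparison: the median over all probes was 0.37 with the 75th percentile and 0.03 with the array median, and the lincRNA median then was 0.29. With normexp background correction the medians were 0.139 for lincRNA probes and 0.138 for all probes. The share of calls that were higher was 73.7%, against 61.5% with the array median (3426 higher, 2144 lower) and 64.0% with normexp (3220 higher, 1810 lower).

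Where at least 2 probes of 1 name were called, the calls mostly went one way. Genes with several probes were not counted in this way. Of 1895 names with at least 2 measured probes, 513 had a called probe and 224 had at least 2 called. In 216 of those 224 all calls went one way, and in 8 names they went both ways. Every measured probe was called in 100 names, all higher in 67 and all lower in 31. Such probes are not independent, since 406 measured probes overlap another on the same strand and all probes of a name may report 1 transcript.

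Calls were also counted by place. Of 361 windows of 1 Mb with at least 8 measured lincRNA probes, 116 had no call and 17 had at least 50% called. Probes of 1 window are not independent, since several may report 1 transcript, and other probes were not counted in this way. The windows below were picked after their values were seen. By name, taking the brightest probe, the share called ran from 3.80% on chromosome 13 to 19.3% on chromosome 1. The densest window lay on chromosome 16 (chr16:43623175-43642715), where 20 of 22 probes, from 4 names, were higher, with a median of 0.57. It lies beside Zbtb20, a zinc finger repressor gene, which was itself higher by 0.64 (adjusted p = 0.00375), and Tigit, a gene for an inhibitory receptor of lymphocytes, which was higher on slide 1 (1.95, adjusted p = 8.43e-05) and gave 0.14 on slide 2 (adjusted p = 0.796), with a difference between slides that passed (-1.82, adjusted p = 0.00404).

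All 9 forward probes of chr16:43623581-43642715_F were higher, by 0.46 to 0.58, and so were 5 of 7 reverse probes, by up to 1.5. The 9 forward calls were kept under every alternative run. Of the reverse calls, A_30_P01029747 was lost in 20 of 25 alternatives, 13 of them leaving out 1 array, and A_30_P01027868 in 10 of 26. A_30_P01021355 and A_30_P01022222 were lost with normexp and with dim spots at the floor (adjusted p up to 0.182 and 0.274), and A_30_P01030753 in 0 of 26. A_30_P01018802 on the forward strand read -0.25, 0.02, 0.33 and 0.43 in deficient and -0.79, -0.71, -0.43 and -0.41 in wild-type samples of slide 1. On slide 2 it read -1.34, -1.02, -0.88 and -0.84 against -1.56, -1.53, -1.43 and -1.34, so the groups met at their edge. The forward median was 0.72 on slide 1 and 0.37 on slide 2.

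On chromosome 1, 28 of 33 probes between 85036677 and 85337483 were higher, with a median of 1.55. In chr1:85117750-85129200 all 5 forward and all 5 reverse probes were higher, with medians of 1.47 and 2.32. Only the forward probe A_30_P01028421 lost its call, in 4 of 26 alternatives, each leaving out 1 array (adjusted p up to 0.0527). A_30_P01026202 on the reverse strand read from -1.12 to 0.85 in deficient and from -6.20 to -1.65 in wild-type samples of slide 1, and from -2.73 to -2.37 against -5.32 to -4.44 on slide 2. The groups did not overlap, but wild-type samples of slide 1 split, with -2.13 and -1.65 beside -6.20 and -5.38. The nearest measured symbol, Slc16a14 at 213.8 kb, differed by 0.44 (SE 0.33, adjusted p = 0.407).

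Further along chromosome 1, 13 of 22 probes between 87343550 and 87631604 were higher, near Sp100 and Sp110, genes of nuclear body proteins. All 5 probes of chr1:87419050-87452625_F were higher by 1.18 to 1.88, with 1 call lost on leaving out 1 array (A_30_P01032896, adjusted p = 0.0507), while the 3 probes of Sp110, 20.9 kb away, disagreed: the brightest was lower (-0.24, adjusted p = 0.0391) and the others higher (0.27 and 0.24). On chromosome 7 all 5 probes of chr7:113768215-113783490_R were higher, by 1.00 to 2.13, with medians of 2.13 on slide 1 and 0.67 on slide 2. On chromosome 11, 9 of 15 probes near Rnf213, a large ubiquitin ligase gene, were higher, and so was Rnf213 (0.95, SE 0.09, adjusted p = 6.21e-06). The dense window in which all calls were lower lay at Plekha8 on chromosome 6, where 9 of 12 were lower. All 5 probes of chr6:54591416-54597566_F were lower (-0.54 to -0.63), and so was Plekha8, a lipid transfer protein gene (-0.39, adjusted p = 0.0207). On the reverse strand of this interval, the call of A_30_P01032135 was lost in 15 of 27 alternatives, 13 of them leaving out 1 array. That of A_30_P01033159 was lost in 0 of 27.

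**Figure D4:**
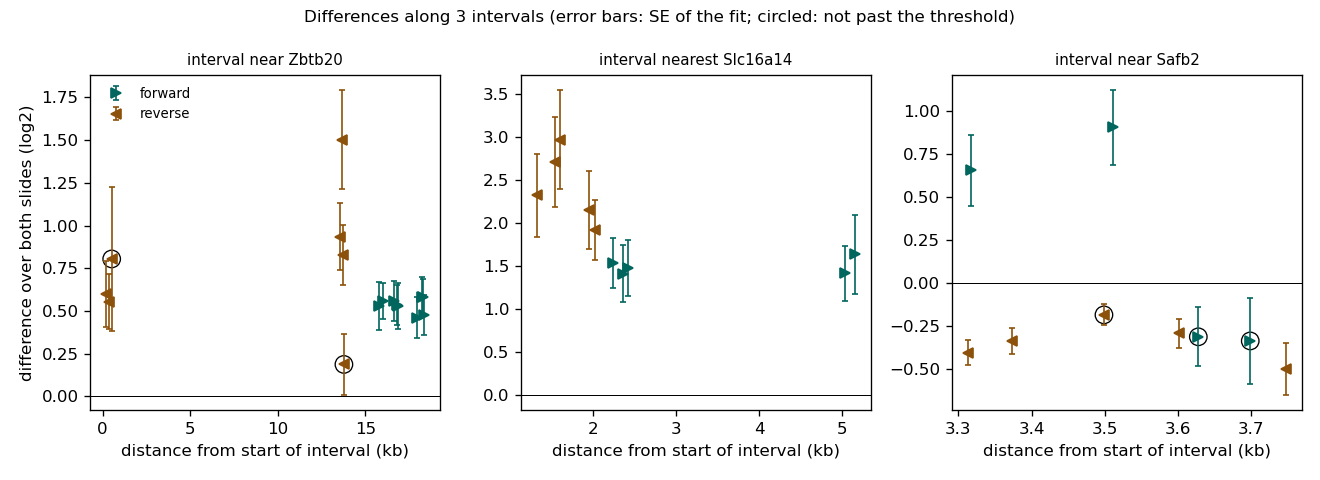
Genotype difference over both slides (log2, deficient minus wild type, bars are the SE of the fit) of each mapped lincRNA probe against its distance in kb from the start of its interval, for chr16:43623581-43642715, chr1:85117750-85129200 and chr17:56687541-56694616. In the first 2 every called probe of both strands is above 0, and in the third the 2 called forward probes are above 0 and the 4 called reverse probes below. In the third, all 4 reverse calls and 1 of the 2 forward calls were lost with slide as a block.

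Strand pairs were compared next. The array probes 1067 intervals on both strands, of which 688 (64.5%) were measured on both, 297 on one and 82 on neither. Among the 688, 265 were called on either strand over both slides, 221 of them on one strand and 44 on both. By strand, 19.6% of the 688 were called on the forward and 25.3% on the reverse. Whether 44 is more than these shares alone would give was not tested. Of the 44, 18 were all higher, 7 all lower, 15 went opposite ways, and 4 held both directions within a strand. The medians of the 2 strands correlated with Pearson's r = 0.151 across intervals, which share arrays and position and are not independent.

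**Figure D5:**
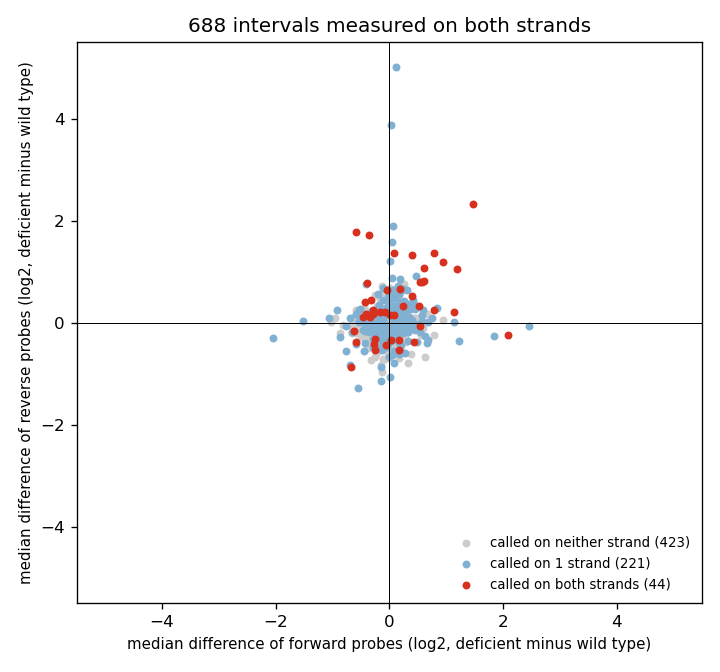
Median genotype difference (log2, deficient minus wild type) of forward probes against that of reverse probes for the 688 lincRNA intervals measured on both strands. Red points, the 44 intervals called on both strands, lie on both sides of 0 on each axis, and the largest differences on one strand (the reverse medians of 5.03 and 3.88 on chromosome 15) sit near 0 on the other.

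Pairs of probes that cover the same bases on opposite strands give the closest comparison. There were 729 such pairs, and 429 shared at least 30 bases. One probe was called in 141 pairs and both in 16, of which 12 went one way and 4 opposite ways. Near Rnf213, A_30_P01023623 was higher by 0.61 (SE 0.10, adjusted p = 0.00138) and its reverse partner A_30_P01021573 by 1.08 (SE 0.20, adjusted p = 0.00211). The reverse probe was well above background on no wild-type array of slide 1 and on 2 of slide 2. Near Zbtb20, A_30_P01021665 was higher by 0.64 (adjusted p = 0.00315) and A_30_P01027868 by 0.55 (adjusted p = 0.0302). A_30_P01027868 gave 1.40 on slide 1 (adjusted p = 0.000964) and -0.30 on slide 2 (adjusted p = 0.514), and its call was lost in 10 of 26 alternatives, 6 of them leaving out 1 array (adjusted p up to 0.063 among those).

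Opposite directions were seen in the pair nearest Acox3, a peroxisomal oxidase gene. A_30_P01021642 on the forward strand read from -1.23 to -0.33 in deficient and from -0.11 to 0.29 in wild-type samples of slide 1, and from -1.42 to -0.88 against -1.17 to -1.06 on slide 2. A_30_P01021070 on the reverse strand read from 1.22 to 1.60 against 0.69 to 1.35 on slide 1, and from 3.12 to 3.48 against 2.68 to 2.85 on slide 2. The forward probe was lower (-0.44, SE 0.12, adjusted p = 0.0259), with no overlap on slide 1 and overlap on slide 2, and the reverse probe higher (0.46, SE 0.09, adjusted p = 0.00373), with overlap on slide 1 and none on slide 2. The forward call was lost without deficient sample 4 of slide 2 (adjusted p = 0.0538) and in 4 other alternatives (adjusted p up to 0.0649).

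Other intervals chosen after their values were seen also went opposite ways. At chr11:53592946-53637922, 1.1 kb from Irf1, which encodes an interferon-induced transcription factor, 3 of 5 reverse probes were higher and 1 of 2 forward probes lower. These calls came from slide 1: A_30_P01030240 gave 1.15 there (adjusted p = 7.31e-05) and -0.13 on slide 2 (adjusted p = 0.633). With slide as a block, additive or random, all 4 calls were lost (adjusted p from 0.0542 for A_30_P01019936 to 0.193 for A_30_P01030888). The forward call, A_30_P01032128, was lost in 9 of 27 alternatives, 6 of them leaving out 1 array. At chr17:56687541-56694616, near Safb2, 4 of 5 reverse probes were lower and 2 of 4 forward probes higher. The reverse median was 0.20 on slide 1 and -0.82 on slide 2. With slide as a block all 4 reverse calls were lost (adjusted p from 0.0829 for A_30_P01018472 to 0.253 for A_30_P01031734), and A_30_P01021671 lost its call in 16 of 26 alternatives. Of the forward calls, A_30_P01024051 was lost in 20 of 26 alternatives, 14 of them leaving out 1 array, and A_30_P01022603 in 0 of 26. At chr15:79709500-79714700, 11.2 kb from the antiviral deaminase gene Apobec3, 2 of 3 reverse probes were higher, up to 2.47 for A_30_P01031469 (SE 0.41, adjusted p = 0.00123), and the 1 forward probe lower (-0.59, adjusted p = 0.0106). The 3 probes of Apobec3 were higher by 1.35, 2.86 and 3.33 (adjusted p = 0.00406, 0.0016 and 0.000513). The forward probe A_30_P01018647 was well above background on no array of slide 1, and its call was lost in 3 of 25 alternatives, none of them leaving out an array (adjusted p up to 0.61).

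Each name was then set beside its nearest gene with an official symbol, represented by the brighter or brightest of the gene's measured probes. A gene probe lay inside the interval for 259 of 3241 names, within 10 kb for 1131 and within 50 kb for 2232, with a median gap of 21261 bases. For 506 names the nearest gene was not measured. Of the other 2735, both the lincRNA probe and the gene were called in 99, in 1 direction in 67 and in opposite directions in 32. Of the 370 called lincRNA probes 26.8% had a called nearest gene, while 20.4% of the 1179 nearest genes measured were called.

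Counts by distance and strand were as follows, with no test of the difference between classes. With a gene probe inside the interval on the same strand, both were called in 13 of 137 names, 12 of them in 1 direction. At over 50 kb both were called in 27 of 797, 13 in 1 direction and 14 opposite. The differences correlated with r = 0.219 for genes inside on the same strand (n = 137), 0.0419 inside on the opposite strand (n = 95), 0.0382 from 1 base to 10 kb (n = 792), 0.0834 from there to 50 kb (n = 914) and 0.128 beyond 50 kb (n = 797). The correlation did not fall steadily with distance. These are across pairs measured on the same arrays and are given as description.

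Gas5, a host gene of small nucleolar RNAs that is known to build up when growth stops, had probes that did not all go one way. The cause was not tested. Its interval chr1:162965309-162970704_F has 2 measured lincRNA probes, which touch end to end and went opposite ways. A_30_P01026422 read -0.36, 0.01, 0.19 and 0.40 in deficient and -1.15, -0.82, -0.81 and -0.70 in wild-type samples of slide 1. On slide 2 it read 0.13, 0.18, 0.50 and 0.54 against -1.71, -1.56, -1.51 and -1.41. The groups did not overlap on either slide, and it was higher by 1.41 (SE 0.11, adjusted p = 1.16e-06).

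The probe that starts on the next base, A_30_P01023313, read from 0.36 to 1.10 against 1.34 to 1.70 on slide 1 and from 0.81 to 1.22 against 0.71 to 1.03 on slide 2. It was lower by -0.34 (SE 0.11, adjusted p = 0.0458), a call lost in 14 of 27 alternatives, 10 of them leaving out 1 array (adjusted p up to 0.0894 among those). The 3 probes named Gas5 gave 2.96 (SE 0.13, adjusted p = 4.47e-09), 1.36 (adjusted p = 2.1e-07) and -0.31 (adjusted p = 0.0126). On the reverse strand 1 of 9 measured probes was called, A_30_P01029806, which was higher by 0.97 (adjusted p = 0.00358).

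Known long noncoding RNAs with a symbol formed a separate list of 47, of which 34 were on the array and 28 measured. Over both slides 4 were higher and 1 lower, against the background of 16.8%, with a median of 0.11 against -0.03 for all probes. The higher ones were Gas5 (above), 1700020I14Rik (0.77, SE 0.09, adjusted p = 4.38e-05), Snhg3, a host of small nucleolar RNA (0.79, SE 0.24, adjusted p = 0.0355), and Mirg, a microRNA host of the imprinted Dlk1 region (0.99, SE 0.32, adjusted p = 0.0455). The last 2 are near the threshold: the call was lost on leaving out 1 array in 13 of 16 cases for Snhg3 (adjusted p up to 0.07) and in 11 of 16 for Mirg (adjusted p up to 0.0913). The lower one was 6720401G13Rik (-0.44, SE 0.11, adjusted p = 0.0117).

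6720401G13Rik overlaps the lincRNA interval chrX:47893703-47996700_R, in which 4 of 6 measured probes were lower as well. A_30_P01031014 there read from -2.61 to -1.80 in deficient and from -1.72 to -1.10 in wild-type samples of slide 1, and from -3.25 to -2.98 against -2.76 to -2.16 on slide 2, with no overlap on either slide (-0.64, SE 0.13, adjusted p = 0.0053). Xist, which coats the silenced X chromosome in female cells, was well above background on 7 arrays. It ran from -6.76 to 0.97 in deficient and from -6.59 to 0.42 in wild-type samples of slide 1, and from -7.21 to 2.29 in deficient samples of slide 2, while the wild-type samples of slide 2 all lay between -7.65 and -7.25. Its part in the lincRNA differences was not tested. The abundant nuclear RNAs Malat1 (0.15, adjusted p = 0.546) and Neat1 (0.13, adjusted p = 0.549) did not pass. At chr15:61919018-61935580_R, the interval nearest the growth gene Myc at 97.5 kb, 3 of 4 probes were higher. That came from slide 1, where the median was 1.5 against -0.27 on slide 2, and Myc itself was lower on slide 1 (-0.89, adjusted p = 0.00784) and gave 0.10 on slide 2 (adjusted p = 0.844), with a difference between slides that passed (1.00, adjusted p = 0.0379). All 3 interval calls, of A_30_P01023290, A_30_P01027788 and A_30_P01028281, were lost with slide as a block and with normexp (adjusted p up to 0.281, 0.168 and 0.205). A_30_P01028281 also lost its call in 9 of 16 fits that left out 1 array.

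Other cell types were read from marker genes. All 8 B cell markers were well above background on all 16 arrays, and 1 of them, Cd22, was higher in deficient samples (1.07, adjusted p = 0.0379). Of the erythroid markers 5 of 6 were measured and the globins Hba-a1 (2.23, adjusted p = 0.00251) and Hbb-b1 (2.69, adjusted p = 0.000796) were higher. The list's summed level (log2) ran from 0.96 to 3.32 in deficient and from -2.46 to -2.13 in wild-type samples of slide 2, and overlapped on slide 1 (5.94 to 7.76 against 5.78 to 8.44). Of 5 plasma cell markers 1 was called, lower, and the list median was 0.54 on slide 1 and -1.09 on slide 2. Of 8 T cell markers 1 was higher and 1 lower.

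Of the 8 macrophage, 5 neutrophil, 4 measured platelet and 4 NK cell markers 0 passed limma's test over both slides (lowest adjusted p 0.137), and at an unadjusted p under 0.05 there were 2 macrophage markers and 0 of the other lists. The summed neutrophil level ran from 2.55 to 7.15 in deficient and from 1.23 to 5.06 in wild-type samples of slide 1, and from -3.81 to -3.21 against -3.52 to -3.26 on slide 2. It thus varied far more within and between groups on slide 1. The part of other cells in the lincRNA differences was not tested.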

How the data were processed

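Total RNA (0.2 microgram, RIN number 9) was measured on 16 single-colour Agilent arrays. The spot intensity is the authors' scanner output, extracted with Agilent Feature Extraction 10.7.3.1 and annotated on mm9, per the file headers. The table of log2 values was deposited by the authors, scaled by slide, and served as an alternative within slides; the submitters' processing notes name limma for slide 2.

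Here log2 processed signal minus the 75th percentile of non-control spots of each array was analysed, without outlier spots (52 of the lincRNA values). Arrays within a group were not identical. A model in limma 3.58.1 (R 4.3.3) with 4 group means of genotype and slide was fitted to 32881 probes well above background on at least 4 arrays. Each p is limma's, adjusted by Benjamini-Hochberg over all probes tested, with a threshold of 0.05. A positive log2 difference means a higher level in deficient samples; each has the SE of the fit, with n = 4 arrays per group. A fold against a group with no array well above background is a lower bound: the bright group's mean over the dim group's mean of, on each array, its own signal or the lowest detected one, whichever is higher. The script was tested on simulated data. The number of arrays limits the precision.

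Members and lists were chosen with earlier results of these data known. Named probes are the 12 higher and 12 lower with the largest difference among those called with 1 sign on both slides, the 6 with the lowest adjusted p for the slide difference, the 6 brightest, called named noncoding RNAs, and nearest genes of these. Of strand pairs in which either strand was called, 265 are counted and those named were chosen after their values were seen, as were all other intervals and probes. Where several probes measure a gene, the brightest stands for it unless said. Alternatives changed scaling, background, the filter on dim probes, the slide term, array weights and the arrays included. The nearest gene is the symbol whose probe lies nearest the interval.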

Additional observations from a re-analysis of the deposited data

Results flagged for a closer look

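In 12 of 140 groups of 4 arrays of the 35 named probes, 1 array lay far from the other 3; chance alone sets about 1 in 20 groups apart. Of A_30_P01028821 on slide 2, deficient sample 1 read -2.31 against -1.14 to -0.98 and wild-type sample 1 read -7.57 against -7.19 to -7.15. Of A_30_P01023130, wild-type sample 5 of slide 1 read -2.91 against -6.79 to -6.40 and wild-type sample 1 of slide 2 read -5.72 against -7.21 to -7.0. A_30_P01019266 read -6.48 in deficient sample 12 of slide 1, against -2.64 to -2.12. A_30_P01030982 read -4.07 in wild-type sample 2 of slide 1, against -6.77 to -6.62. A_30_P01021271 read -4.62 in wild-type sample 2 of slide 2, against -3.93 to -3.79. A_30_P01019134 read -3.94 in deficient sample 9 of slide 1, against -3.65 to -3.62. A_30_P01019822 read -3.54 in deficient sample 4 of slide 2, against -7.19 to -6.79. A_30_P01021347 read -1.21 in wild-type sample 6 of slide 1, against -5.21 to -4.90. A_30_P01020037 read -6.73 in deficient sample 3 of slide 2, against -7.17 to -7.12. A_30_P01031448 read 8.06 in deficient sample 1 of slide 2, against 8.17 to 8.19.

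The genotype difference was not the same on the slides for 6 probes chosen by this test, given as slide 2 minus slide 1. The change was -3.95 for A_30_P01019134 and -3.68 for A_30_P01020037, both nearest Rasal2. It was 4.04 for A_30_P01018761, 3.26 for A_30_P01022815, -2.98 for A_30_P01023287 and -1.53 for A_30_P01030499. A_30_P01018761 and A_30_P01022815 were detected in 1 group only, through which they passed the detection rule, so their change is partly set by it.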

How the results depend on the processing

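Each of 145 tested values of named probes and genes was recomputed under up to 27 alternatives: 109 kept their side of the threshold throughout and 36 lost the call in at least 1; none reversed. Counts moved by over 1.5 times as follows. Scaled to the array median, and with no filter on dim probes, 121 probes were lower on slide 2, and 120 in the authors' value table. With no filter the slides' differences differed for 298 probes, both strands were called in 28 intervals, and 39 nearest genes were called in 1 direction. The 3615 probes well above background on all 16 arrays gave 370 higher over both slides and 554 higher on slide 1. They gave 1757 higher on slide 2 than on slide 1, and 19 strand pairs. The 5062 detected in every group gave 2543 higher on slide 2 than on slide 1. Fewer probes were tested in both of these sets. With slide as an additive block 29 strand pairs and 44 nearest genes were counted, and with a random block 357 higher and 267 lower probes, 21 strand pairs and 35 nearest genes. Fitted alone, slide 1 gave 377 higher and 171 lower and slide 2 gave 251 and 363. Array weights gave 498 higher and 757 lower on slide 2, 1002 that differed between slides and 67 strand pairs. Leaving out 1 array gave 88 to 154 higher and 100 to 213 lower probes on slide 2, 382 to 608 that differed between slides, 462 to 586 higher and 348 to 502 lower over both slides, 656 to 903 and 415 to 562 on slide 1, 33 to 51 strand pairs and 47 to 67 nearest genes. The cause of these moves was not tested. Samples that share a number on slide 2 did not deviate together beyond r = 0.1 (0.025, 0.07 and 0.089), although each correlated best with its own number, a hint from the data. The replicate block gave 154 higher and 170 lower probes on slide 2, against 258 and 357 without it on the same arrays, a comparison added after seeing the data.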
